A study of Homo sapiens with 10 samples.

Results

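EGFR, its relatives ERBB2 and ERBB3 and 6 ligands of the family (AREG, EREG, EPGN, HBEGF, TGFA and BTC) were followed in RNA-seq of PC-3 spheroids, 9 genes of the 18144 in the expression table. They were chosen by symbol, and because AREG and EPGN were lower in treated than in untreated spheroids on day 3, so that contrast is described here without a test. PC-3 is a line established from a prostate cancer metastasis, and it was grown as 3D spheroids. All libraries carried the genotype label WT, which here names the unmodified line. Untreated spheroids (labelled CTRL) were sequenced on days 0, 3 and 7. CONV-TOPO spheroids (labelled conventional), which received the topoisomerase I poison topotecan as a single bolus, and EE-TOPO spheroids (labelled extended exposure), which received daily fractions of it, were sequenced on days 3 and 7. Each condition was sequenced as 1 library without a replicate, so 7 libraries were used, and the 3 samples of day 1 were not analysed here. The text of the series speaks of weeks of exposure where the sample labels give days, and days are used here as labelled. The model is 1 cancer line, to which no other cell type of a tumour was added.

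EGFR is a receptor tyrosine kinase that is switched on when a ligand brings a pair of receptors together, with ERBB2 and ERBB3 as partners. ERBB2 has no known ligand, and ERBB3 has a weak kinase and is known for passing the signal to PI3K. The ligands are made as membrane proteins and are released by sheddases such as ADAM17. The active receptor signals through GRB2, SOS and RAS to the kinase ERK, whose output includes feedback inhibitors of the DUSP and SPRY families. In epithelia, prostate included, ligands made by a cell can act on the same cell and its neighbours.

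Depth ranged from 15.0 M to 22.5 M estimated reads per library (M, 1000000 reads), with a median of 18.9 M. Levels are CPM, counts per 1000000 reads, and intervals in brackets are exact 95% intervals of the estimated reads, which cover counting error only. The PC-3 markers KRT8, KRT18, VIM and CD44 summed to between 2344 and 3359 CPM. Of the fibroblast markers (46.7 to 83.4 CPM in sum over 3 genes), COL1A1 gave nearly all and DCN was at or under 3 reads in most libraries. Of the leukocyte markers (66.0 to 128 CPM over 2 of 3 genes), CD68 gave nearly all and PTPRC was at or under 3 reads in most. Of the endothelial markers (16.8 to 32.8 CPM over 2 of 3 genes), PECAM1 gave nearly all and VWF was at or under 3 reads in most. The proliferation genes MKI67, TOP2A and CDK1 summed to 372, 247 and 414 CPM in untreated spheroids of days 0, 3 and 7. The sums of days 3 and 7 were 228 and 202 CPM with CONV-TOPO and 304 and 166 CPM with EE-TOPO. The part of these levels in the results below was not tested.

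Of the 6 ligands, 4 lie on chromosome 4 within 486 kb, from the EPGN start to the BTC end, and EPGN (start 74308470, end 74316787), EREG (74365145, 74388748) and AREG (74445136, 74455005) follow each other on the + strand within 147 kb of hg38. EGFR lies on chromosome 7 (55019017, 55211629), ERBB2 on 17, ERBB3 on 12, TGFA on 2 and HBEGF on 5. The sequences just before the starts of these 3 genes are shown because their levels moved alike in the untreated course described below, together with that of HBEGF on chromosome 5, which moved the same way from another chromosome. Each is the 150 bases before the RefSeq start in GRCh38.p14, written 5′ to 3′ on the strand of the gene. Capitals mark TATAAA, the core of a TATA box, and TGACGTCA, the palindromic cyclic AMP response element.
AREG, chr4:74444986-74445135, + strand: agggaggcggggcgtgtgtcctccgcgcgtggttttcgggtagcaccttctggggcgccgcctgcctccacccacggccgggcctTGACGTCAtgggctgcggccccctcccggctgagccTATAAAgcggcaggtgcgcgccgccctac
EREG, chr4:74364995-74365144, + strand: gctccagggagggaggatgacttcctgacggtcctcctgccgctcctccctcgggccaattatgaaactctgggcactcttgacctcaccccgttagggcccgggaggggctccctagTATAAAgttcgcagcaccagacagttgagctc
EPGN, chr4:74308320-74308469, + strand: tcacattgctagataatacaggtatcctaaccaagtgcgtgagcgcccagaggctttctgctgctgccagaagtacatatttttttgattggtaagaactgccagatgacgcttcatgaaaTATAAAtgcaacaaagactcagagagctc
HBEGF, chr5:140346604-140346753, - strand: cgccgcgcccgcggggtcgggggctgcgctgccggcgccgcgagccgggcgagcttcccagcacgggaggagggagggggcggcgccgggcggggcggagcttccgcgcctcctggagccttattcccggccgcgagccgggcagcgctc
TATAAA began 29 bases before the start of AREG, 32 before that of EREG and 29 before that of EPGN, and was not in the HBEGF window. The cyclic AMP response element began 65 bases before the AREG start and does not overlap the TATAAA. RefSeq promoters were found for 8 of the 9 genes. At the EGFR gene start TATAAA was not present, and an internal RefSeq start of EGFR held it. Searched on both strands over 250 bases before 35116 starts of all genes, TATAAA was present in 10.7% and TGACGTCA in 1.65%. A match of letters is a description of the sequence and not a site of binding.

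To compare levels between genes, CPM were divided by the length of the canonical transcript in kb. AREG, which encodes amphiregulin, a low-affinity EGFR ligand, was the highest of the 9 genes in every library, with a median of 73.3 CPM per kb and a range of 54.9 to 148. ERBB2 followed with a median of 33.1 CPM per kb, then TGFA (25.3), HBEGF (23.4), EGFR (17.0), ERBB3 (13.6), EPGN (11.4) and BTC (5.79). EREG, which encodes epiregulin, was last in every library with a median of 0.562 CPM per kb and 11 to 127 estimated reads per library. The ranges of neighbours in this order overlapped except between AREG and ERBB2 and between BTC and EREG. TGFA exceeded HBEGF in 4 of 7 libraries and EGFR exceeded ERBB3 in 4 of 7. Across the libraries the ratio of highest to lowest CPM was 10.04 for EREG, 9.18 for EPGN, 2.88 for EGFR, 2.69 for AREG and 1.30 for ERBB2.

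**Figure D1:**
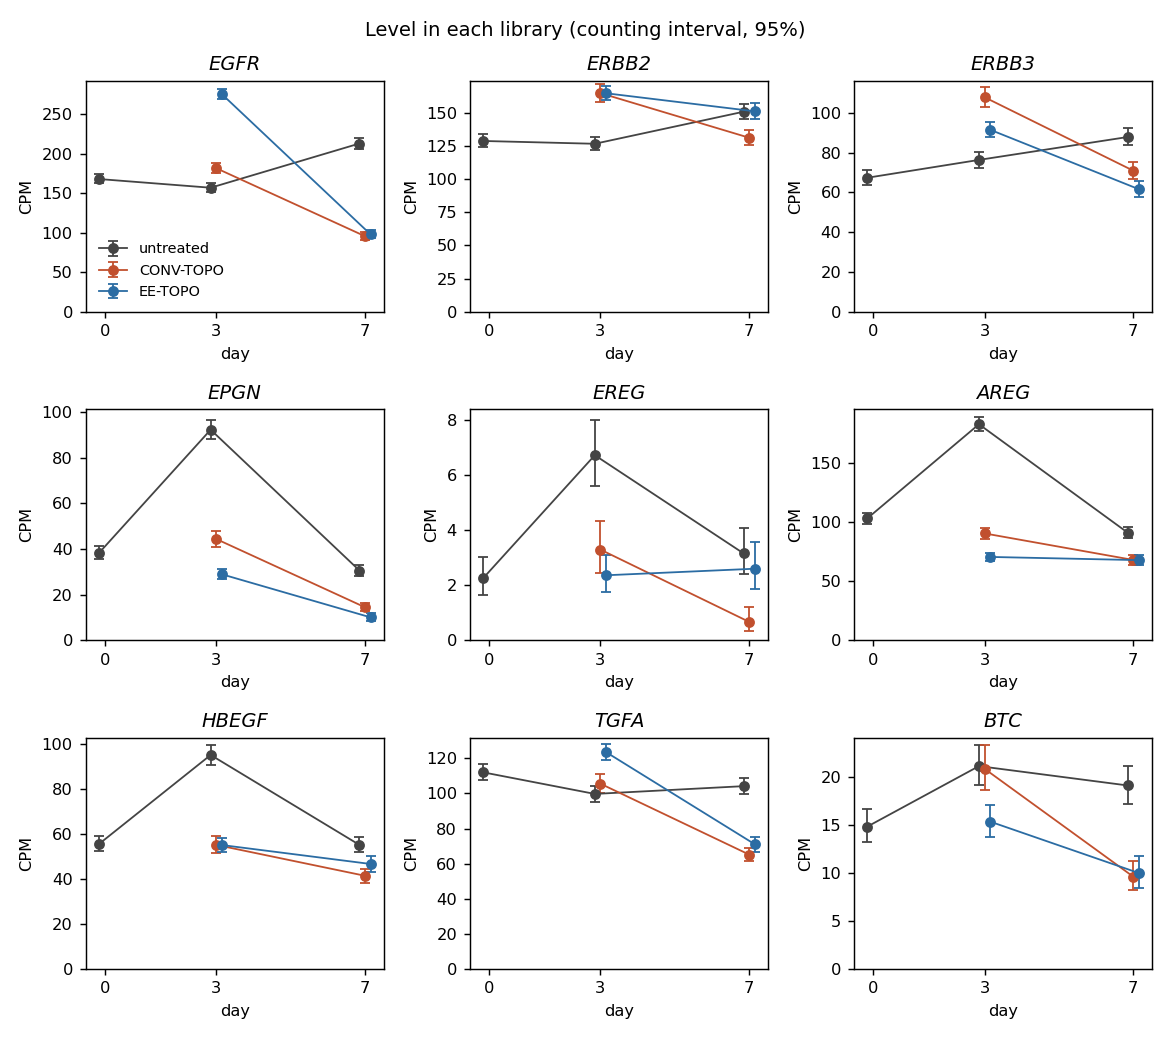
Level of each gene (CPM, linear axis from 0) against day for untreated (grey), CONV-TOPO (red) and EE-TOPO (blue) spheroids, 1 library per point, with bars for the 95% counting interval. EPGN, EREG, AREG and HBEGF had their highest level in the untreated library of day 3, and EGFR had its highest with EE-TOPO on day 3 (276 CPM).

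The untreated course is given first because every day-3 contrast of drug against no drug rests on the 1 untreated library of that day. EPGN, which encodes epigen, another low-affinity ligand, was at 38.3, 92.2 and 30.6 CPM in untreated spheroids of days 0, 3 and 7. AREG was at 103, 183 and 91.0 CPM. EREG was at 2.25, 6.71 and 3.15 CPM. HBEGF, which encodes a heparin-binding ligand of EGFR and ERBB4, was at 55.6, 95.2 and 55.1 CPM. In each of these 4 genes the counting interval of day 3 lay above those of days 0 and 7. BTC, which encodes betacellulin, was at 14.8, 21.1 and 19.1 CPM, and TGFA, the ligand TGF-alpha, at 112, 99.8 and 104 CPM.

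From day 0 to day 3 without drug, 2 of the 9 genes were at least 2-fold higher, EREG at 2.98-fold (2.10 to 4.28) and EPGN at 2.41-fold (2.21 to 2.63). The background was 3.85% of the 13522 genes that averaged at least 1 CPM and had a ratio. AREG was 1.77-fold (1.68 to 1.87) and HBEGF 1.71-fold (1.59 to 1.85) higher. From day 3 to day 7, AREG (0.498-fold), EREG (0.470-fold) and EPGN (0.331-fold) were at least 2-fold lower, 3 of 9 against 1.66% of all genes. The untreated library of day 3 is part of the contrast from which AREG and EPGN were picked, so nothing is read from these shares either. Between days 0 and 7 none of the 9 was 2-fold lower (0.422% of all genes) or higher (4.08%). The receptors moved less, and EGFR was at 168, 157 and 213 CPM on the 3 days. ERBB2 was at 129, 126 and 151 CPM and ERBB3 at 67.4, 76.3 and 87.9 CPM, both highest on day 7.

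Against the untreated library of day 3, AREG, EREG and EPGN were at least 2-fold lower with either regimen, the contrast from which AREG and EPGN were picked. That is 3 of 9 genes with CONV-TOPO, where 0.910% of all genes were 2-fold lower, and 3 of 9 with EE-TOPO, where 0.961% were. Nothing is read from these shares, and both regimens are set against the same untreated library. AREG was at 90.4 CPM with CONV-TOPO and 70.5 CPM with EE-TOPO, or 0.495-fold (0.465 to 0.527) and 0.386-fold (0.364 to 0.410) of the untreated level. EPGN was at 44.3 and 28.9 CPM, or 0.481-fold (0.440 to 0.526) and 0.314-fold (0.286 to 0.343). EREG was at 3.29 and 2.36 CPM, or 0.490-fold (0.346 to 0.685) and 0.351-fold (0.250 to 0.488). The CONV-TOPO values of AREG, EPGN and EREG sit at the 2-fold limit, and the intervals of all 3 cross it. HBEGF was at 55.1 CPM with both regimens, 0.579-fold of untreated with each. In bulk RNA, fewer cells that express a gene and less RNA per cell cannot be told apart.

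The treated day-3 levels of these 4 ligands lay near the untreated levels of the other days. Against the untreated library of day 0, AREG had a ratio of 0.876 (0.818 to 0.939) after the bolus of CONV-TOPO and of 0.684 (0.640 to 0.730) after EE-TOPO. EPGN was 1.16-fold (1.04 to 1.29) and 0.756-fold (0.679 to 0.840). EREG was 1.46-fold (0.956 to 2.23) and 1.05-fold (0.690 to 1.59), both intervals spanning no change. HBEGF was 0.992-fold (0.906 to 1.09) and 0.991-fold (0.913 to 1.08), again with no change inside either interval. With that baseline, or with the mean of the 3 untreated libraries, 0 of 9 genes were 2-fold lower on day 3 under either regimen. Over all genes, 117 (CONV-TOPO) and 134 (EE-TOPO) were 2-fold lower with the day-0 baseline and 74 and 98 with the mean, beside 123 and 130 against untreated day 3. The 2-fold difference of day 3 thus rested on the untreated library of day 3, and whether that library would repeat was not tested.

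On the same day the receptors were higher with treatment, and none of the 9 genes was 2-fold higher (2.03% of all genes with CONV-TOPO and 3.31% with EE-TOPO). EGFR was at 182 CPM after CONV-TOPO, 1.16-fold (1.10 to 1.22) of untreated, and at 276 CPM with EE-TOPO, 1.75-fold (1.68 to 1.83). ERBB2 was at 165 CPM with both, 1.30-fold of untreated with each. ERBB3 was at 108 CPM (1.41-fold, 1.32 to 1.52) and 91.5 CPM (1.199-fold, 1.12 to 1.28). TGFA was 1.06-fold (0.990 to 1.13) and 1.24-fold (1.17 to 1.31), and BTC 0.987-fold (0.849 to 1.15) and 0.726-fold (0.627 to 0.841). The 3 receptors and TGFA were thus on the other side of no change from AREG, EPGN, EREG and HBEGF, although for TGFA with CONV-TOPO the interval included no change. After correction for gene span, GC content and transcript length, the log2 ratio of EGFR with CONV-TOPO turned from 0.21 to -0.03 and with EE-TOPO went from 0.81 to 0.35.

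**Figure D2:**
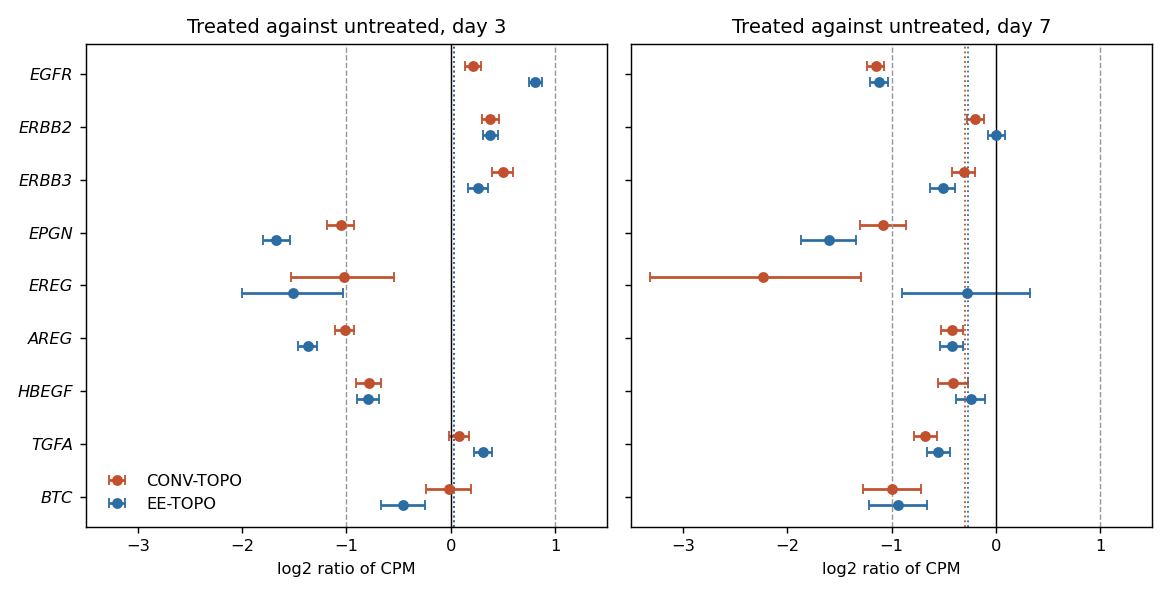
Log2 ratio of CPM, treated against untreated, for each gene on day 3 (left) and day 7 (right), with 95% counting intervals; dashed lines mark 2-fold and dotted lines the median of all genes in each comparison. On day 3 the receptors lie right of 0 and EPGN, EREG, AREG and HBEGF left of it, and on day 7 EGFR lies beyond 2-fold lower with both regimens.

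The ligand transcripts were also summed per length. The 6 ligands together came to 155, 256 and 142 CPM per kb in untreated spheroids on days 0, 3 and 7. The sums of days 3 and 7 were 147 and 97.6 CPM per kb with CONV-TOPO and 128 and 100.1 CPM per kb with EE-TOPO. AREG held 44.8% to 57.7% of it in the 7 libraries, lowest with EE-TOPO on day 3 and highest in untreated spheroids on day 3. EPGN held 13.4% in untreated spheroids on day 3 and 3.75% with EE-TOPO on day 7. The ratio of the ligand sum to EGFR per length was 16.2 in untreated spheroids on day 3 and 4.59 with EE-TOPO on the same day, the highest and the lowest of the 7 libraries. Transcript ratios say nothing of the amount of shed ligand.

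**Figure D3:**
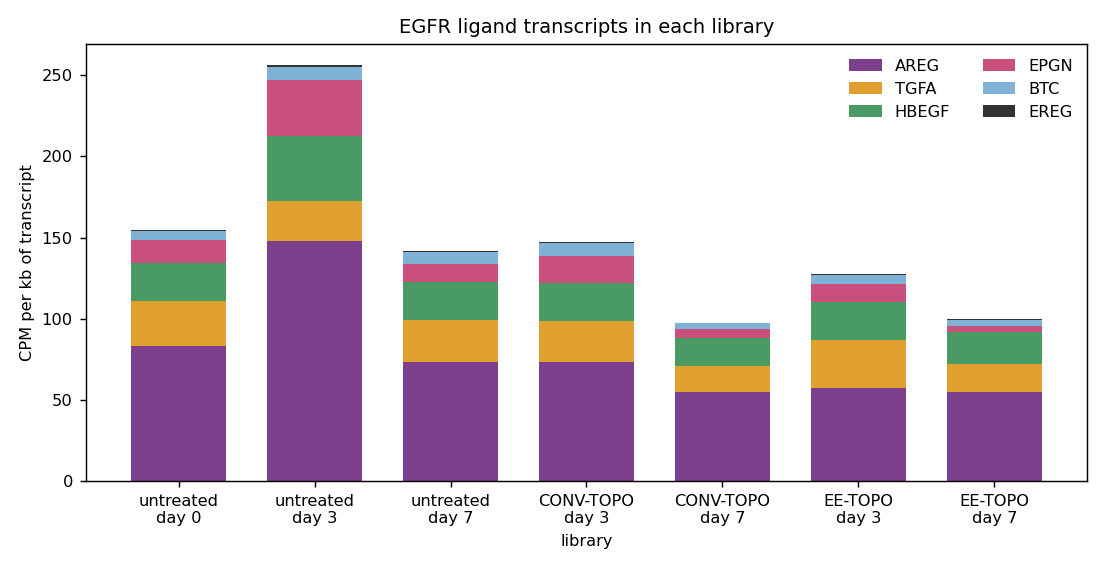
Stacked levels of the 6 ligand transcripts in each library, in CPM per kb of transcript (linear axis from 0), 1 library per bar. The untreated library of day 3 has the tallest bar (256 CPM per kb) and both treated libraries of day 7 the shortest (97.6 and 100.1).

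On day 7 EGFR and EPGN were at least 2-fold lower with both regimens. EGFR was at 213 CPM without drug, 95.7 CPM with CONV-TOPO (0.449-fold, 0.424 to 0.476) and 98.0 CPM with EE-TOPO (0.460-fold, 0.433 to 0.488). EPGN was at 30.6, 14.5 and 10.05 CPM, or 0.473-fold (0.405 to 0.551) and 0.329-fold (0.273 to 0.394). EREG was 0.212-fold (0.101 to 0.407) in the CONV-TOPO library, on 11 estimated reads, and 0.824-fold (0.536 to 1.25) in the EE-TOPO library. BTC lay just above the limit at 0.502-fold (0.414 to 0.607) and 0.522-fold (0.429 to 0.633). TGFA was at 104, 65.2 and 71.1 CPM, or 0.625-fold and 0.682-fold. AREG was at 91.0, 67.9 and 67.8 CPM, 0.747-fold and 0.745-fold, and HBEGF at 0.751-fold and 0.846-fold. ERBB3 was 0.807-fold and 0.701-fold, and ERBB2 0.870-fold (0.822 to 0.920) and 1.00-fold (0.948 to 1.06), the flattest of the 9 with EE-TOPO.

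At least 2-fold lower on day 7 were thus 3 of 9 genes with CONV-TOPO and 2 of 9 with EE-TOPO, where 19.2% and 18.9% of all genes were. None of the 9 was 2-fold higher, against 4.61% and 6.20% of all genes. A share of 2 or 3 in 9 lies near these backgrounds and is not a result about the genes. The median log2 ratio of all genes was -0.29 with CONV-TOPO and -0.27 with EE-TOPO, and each ratio stands beside that shift. With TMM scaling, which centres the bulk of genes and moves these ratios up by 0.25 and 0.22, 1 gene remained past 2-fold with each regimen, EREG with CONV-TOPO and EPGN with EE-TOPO. EGFR then stood at a log2 ratio of -0.90 with both regimens, and ERBB2 with CONV-TOPO turned from -0.20 to 0.05. Lower among all genes past 2-fold were 80.7% (CONV-TOPO) and 75.3% (EE-TOPO) by library totals, and 57.2% and 56.3% with TMM.

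Within each regimen, EREG, EPGN and BTC were at least 2-fold lower on day 7 than on day 3 with CONV-TOPO, 3 of 9 against 19.1% of all genes. With EE-TOPO these were EGFR (0.356-fold, 0.336 to 0.377) and EPGN (0.347-fold, 0.289 to 0.415), 2 of 9 against 22.0% of all genes. AREG differed little between the 2 treated days with EE-TOPO, at 0.962-fold (0.888 to 1.04).

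The treated day-7 ratios followed the span of genes, the genomic distance from start to end, and also transcript length and GC content. Spearman's rho of log2 ratio and transcript length was -0.58 (CONV-TOPO) and -0.54 (EE-TOPO) on day 7, and with GC content it was 0.48 and 0.47. Which of the 3 properties the ratios follow was not tested. Over 13133 genes, rho of log2 ratio and span was -0.48 with both regimens on day 7, and 0.23 (CONV-TOPO) and 0.36 (EE-TOPO) on day 3. Between untreated libraries it was 0.32 for day 7 against day 3, 0.24 for day 7 against day 0 and -0.08 for day 3 against day 0. The value of 0.32 and both day-3 values with drug divide by the same untreated library of day 3. What lies behind the positive values of day 3 was not tested. All these values of rho are descriptions across genes, which are not independent and which share the same pairs of libraries. On day 7, 39.5% and 39.8% of genes over 100 kb were 2-fold lower, with a median log2 ratio of -0.82 in each regimen. Under 20 kb the shares were 8.30% and 7.99% and the medians 0.14 and 0.17. EGFR spans 193 kb and TGFA 107 kb, whereas AREG spans 9.87 kb, EPGN 8.32 kb and HBEGF 13.8 kb. The trend over all genes with span, transcript length and GC content fitted a log2 ratio of -1.09 and -1.10 for EGFR on day 7, close to its measured -1.15 and -1.12. For EPGN it fitted -0.40 and -0.34, against -1.08 and -1.60 measured, and for AREG 0.01 and 0.04 against -0.42 and -0.42. EGFR on day 7 thus lay near the fit of all 3 properties together and below the median of genes over 100 kb, and EPGN and AREG lay below their fit. What lies behind the trend was not tested.

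**Figure D4:**
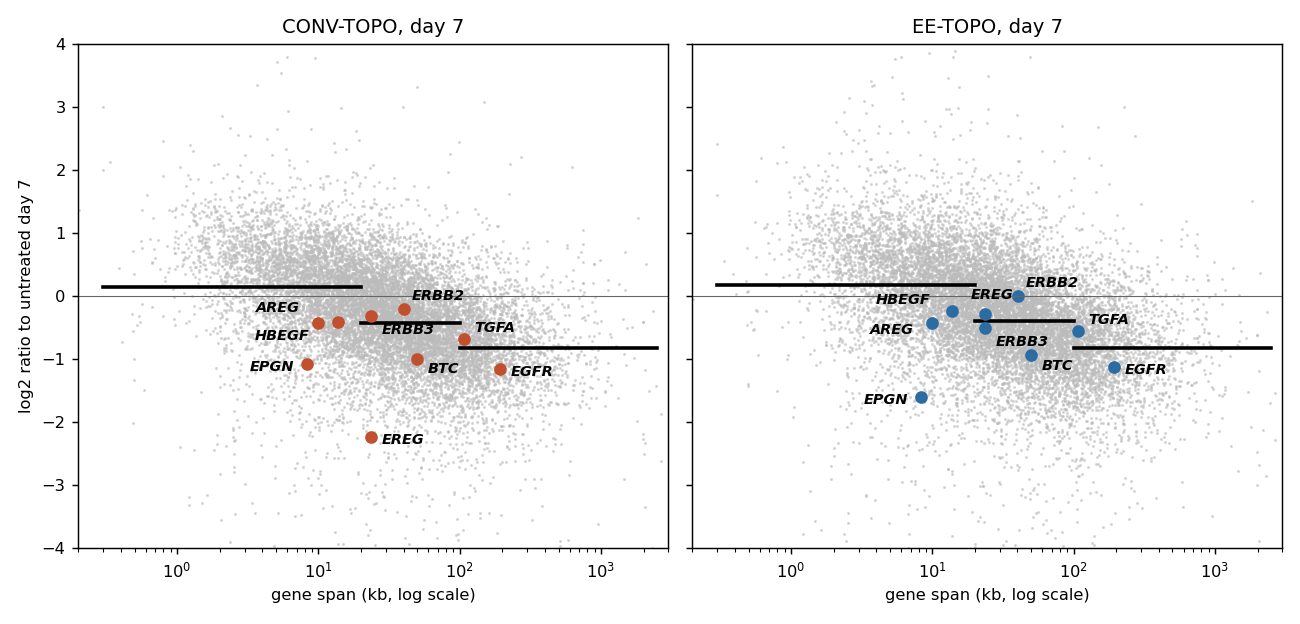
Log2 ratio to untreated spheroids on day 7 against gene span (kb, log scale) for CONV-TOPO (left) and EE-TOPO (right). Grey points are all genes inside the axes and coloured points the 9 genes. Black lines are the medians of genes under 20 kb, of 20 to 100 kb and over 100 kb. EGFR lies below and TGFA above the line of the longest class, and EPGN lies far below that of the shortest.

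The genes around the ligand cluster on chromosome 4 were read as well. On the side of EPGN, the chemokine genes CXCL1, CXCL5, CXCL3 and CXCL2 lie 209 to 439 kb away, and were higher in untreated spheroids on day 3 than on day 0 by log2 ratios of 1.19, 2.46, 2.68 and 1.78. Treated against untreated on day 3, CXCL1 stood at -1.42 and -1.75 (CONV-TOPO and EE-TOPO), CXCL3 at -1.24 and -0.96 and CXCL2 at -1.67 and -0.91. CXCL5 stood at -0.47 and 0.08. MTHFD2L, which encodes a mitochondrial folate enzyme and lies between the chemokine and the ligand genes, had log2 ratios of -0.23 for the untreated step and -0.30 with each regimen. BTC, on the - strand at the far side, stood at 0.51 for the untreated step and -0.02 and -0.46 with treatment. All 3 ratios hold the same untreated library of day 3, so the signs of a gene in them are not independent of each other and are given as a description.

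**Figure D5:**
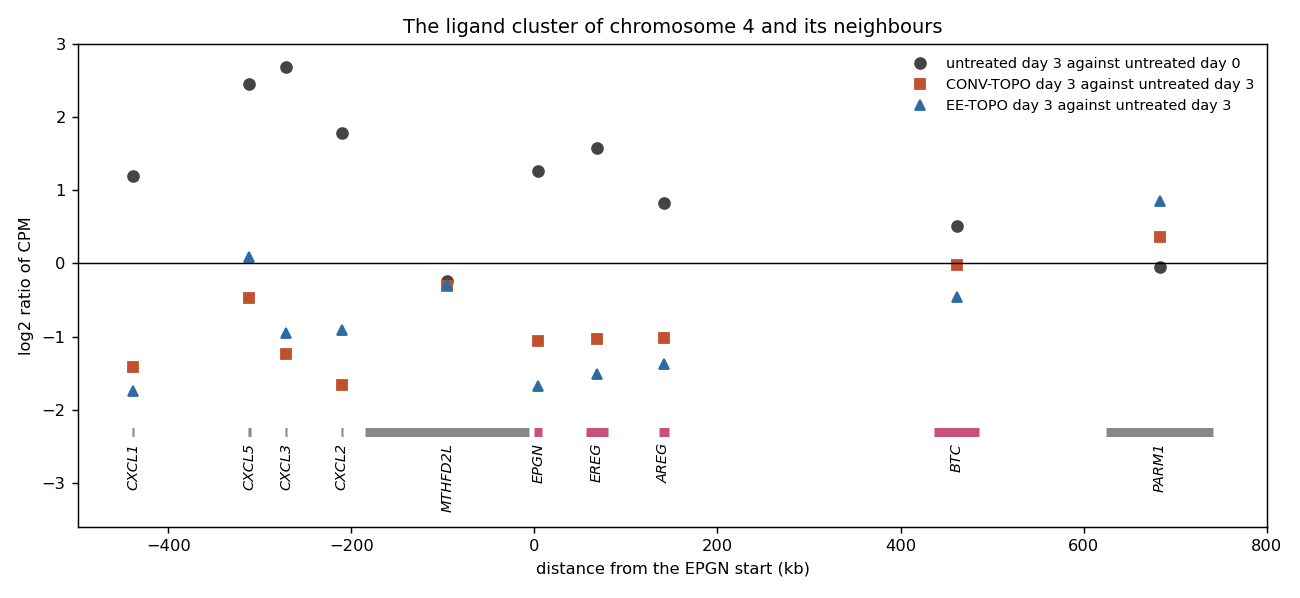
Log2 ratio of CPM of genes with at least 1 CPM on average from CXCL1 to PARM1 on chromosome 4, against distance from the EPGN start (kb), for untreated day 3 against day 0 (circles) and for both regimens against untreated on day 3. Bars at the bottom show the extent of each gene, coloured for the ligands; EPGN, EREG and AREG lie at 0.82 to 1.57 for the untreated step and MTHFD2L at -0.23.

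The regimens were then compared with each other. Per the paper's methods, the bolus was given at the start and the daily fractions split the same weekly total. By day 3 EE-TOPO spheroids had thus been given only a part of the dose that CONV-TOPO spheroids had in full. Dose and schedule cannot be told apart on that day. On day 3 none of the 9 genes differed 2-fold between EE-TOPO and CONV-TOPO (0.799% of all genes were 2-fold lower and 1.25% higher). EGFR was 1.52-fold (1.45 to 1.59) higher with EE-TOPO and EPGN was at 0.652-fold (0.585 to 0.727). AREG was at 0.780-fold (0.725 to 0.839) and BTC at 0.736-fold (0.630 to 0.860). On day 7 EREG was 3.88-fold (1.95 to 8.40) higher with EE-TOPO, 39 against 11 estimated reads, 1 of 9 genes against 2.63% of all genes, and none was 2-fold lower (1.84%). EPGN was at 0.695-fold (0.563 to 0.855), and EGFR (1.02-fold, 0.953 to 1.10) and AREG (0.998-fold, 0.916 to 1.09) did not differ beyond counting error.

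Over both days the regimens were tested with limma in 6 libraries. The error came from how far the differences among untreated, CONV-TOPO and EE-TOPO varied from one day to the other. It thus draws on the untreated libraries too, among them that of day 3 by which AREG and EPGN were picked. None of 13554 genes passed an adjusted p of 0.05, and 98 had an unadjusted p under 0.05, none of them among the 9. EPGN had a log2 difference, EE-TOPO minus CONV-TOPO, of -0.56 ± 0.24 (SE, limma, adjusted p = 1.00) and was lower with EE-TOPO on both days. EGFR had 0.30 ± 0.40 and AREG -0.20 ± 0.34, each with an adjusted p of 1.00 by limma. The 95% intervals of the difference, -1.16 to 0.04 for EPGN, -0.70 to 1.29 for EGFR and -1.03 to 0.64 for AREG, include differences of 2-fold, so the regimens are not shown to act alike on these genes. With the 4 libraries of both regimens alone, 59 genes passed and none was among the 9, whose lowest adjusted p by limma was 0.203. In that fit, with 1 residual degree of freedom, 1338 genes had an unadjusted p under 0.05, among them EGFR and EPGN.

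Further genes of the pathway were counted by role. Of the other receptors and ligands of the family, 2 of 6 (EGF and NRG2) averaged at least 1 CPM and ERBB4 and NRG4 did not. NRG1 and NRG3 had no entry under these symbols in the expression table. NRG2, a neuregulin that binds ERBB3 and ERBB4, was at 23.4 CPM in untreated spheroids on day 7, 14.0 CPM with CONV-TOPO and 8.12 CPM with EE-TOPO. Among 4 genes of sheddases and their partners, none was 2-fold changed on day 3 and 1 was lower on day 7 with each regimen. That gene was ADAM17, the main sheddase of AREG, EREG, HBEGF and TGFA, at 54.7 CPM without drug, 19.0 CPM with CONV-TOPO and 15.5 CPM with EE-TOPO. Of all genes, 0.910% (CONV-TOPO) and 0.961% (EE-TOPO) were 2-fold lower on day 3 and 19.2% and 18.9% on day 7. So 1 of 4 is no result about this list. ADAM10, the sheddase of BTC and EGF, had log2 ratios of -0.79 and -0.60 and RHBDF1, a partner of ADAM17, -0.66 and -0.37.

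Of the 15 genes that relay the signal from receptor to ERK, none was 2-fold changed on day 3. On day 7, 3 of 15 were lower with each regimen, and HRAS was higher with CONV-TOPO (2.14-fold). PTPN11, the phosphatase SHP2, was at 300 CPM without drug, 114 CPM with CONV-TOPO and 113 CPM with EE-TOPO, and SOS1, an activator of RAS, at 78.5, 37.4 and 34.0 CPM. The medians of the list were -0.64 and -0.55, beside -0.29 and -0.27 over all genes. No pathway list was corrected for gene span, transcript length or GC content, which the day-7 ratios followed. Of 9 inhibitors of receptor or pathway, 4 were 2-fold lower on day 7 with CONV-TOPO and 1 was with EE-TOPO. The medians of the list were -0.88 and -0.81. CBL, a ubiquitin ligase that sends EGFR to degradation, had log2 ratios of -1.37 and -1.33, SOCS4 -1.23 and -0.97 and SPRED1 -1.07 and -0.97. CBLB was the gene of this list past 2-fold on day 3, at 2.11-fold with EE-TOPO. The shares of lower genes stand beside the day-7 backgrounds of 19.2% and 18.9% given above. Of all genes, 4.61% were 2-fold higher with CONV-TOPO on day 7 and 3.31% with EE-TOPO on day 3. So HRAS as 1 of 15 and CBLB as 1 of 9 are no result about these lists.

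Of 10 genes induced by ERK, none was 2-fold changed on day 3, and 1 (CONV-TOPO) and 2 (EE-TOPO) were 2-fold lower on day 7, with medians of -0.46 and -0.41. The backgrounds of 2-fold lower genes were 0.910% and 0.961% on day 3 and 19.2% and 18.9% on day 7, so 1 or 2 of 10 is no result about this list. DUSP6, a phosphatase that switches ERK off, was at 382 CPM without drug on day 3, 359 CPM with CONV-TOPO and 209 CPM with EE-TOPO. On day 7 it was at 469, 256 and 169 CPM, log2 ratios of -0.87 and -1.47. SPRY4, a feedback inhibitor, had log2 ratios of 0.17 and 0.24 on day 3 and -1.17 and -1.28 on day 7. DUSP4 had -0.57 and -0.87 on day 7. With EE-TOPO on day 3, 4 of the 10 genes lay above untreated, among them EPHA4 (1.77-fold, from 3.54 to 6.27 CPM) and CCND1 (1.59-fold). The 6 below included DUSP6 (0.549-fold), PHLDA1 (0.613-fold) and SPRY2 (0.634-fold). PHLDA1 was at 735, 1229 and 708 CPM in untreated spheroids of days 0, 3 and 7.

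Across the 7 libraries, the course of AREG on the log2(CPM + 1) scale was most like those of CCAR2 (Pearson's r = 0.967), CXCL1 (0.965), PRPF19 (0.964), CCT8 (0.961) and ZWINT (0.960) among 9984 genes of at least 10 CPM on average. Pearson's r leaves out the size of a change. CCAR2 ranged only from 94.6 to 111 CPM and CXCL1 from 113 to 380 CPM, where AREG ranged from 67.8 to 183 CPM. HBEGF ranked 15 with r = 0.9401 and EPGN ranked 61 with r = 0.885. AREG and EPGN were picked by libraries of day 3 that are among these 7, so nothing is read from these ranks. EGFR was most like CEMIP2 (0.996), MID1 (0.995), SYT16 (0.994), SLC12A2 (0.993) and LYST (0.993), and TGFA ranked 710 with r = 0.944. These values describe 7 points that share untreated libraries and days, and r of AREG with EGFR was 0.18. ERBB2 shares 8704 bases with PGAP3 on the other strand and EGFR 9228 bases with EGFR-AS1, also on the other strand. The kit does not mark strand, so reads of each pair cannot be told apart there. ERBB3 shares 2176 bases with a further gene on its own strand.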

How the data were processed

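RNA of PC-3 spheroids (10 samples by the labels, 7 analysed here) was sequenced by the authors from TruSeq RNA v2 libraries. Per the paper's methods, reads were mapped to hg38 with STAR and counted per gene, and Partek is named in the submitters' processing notes. The annotation and the strand setting are not given in the sources used here. The authors deposited 1 table of CPM (counts per 1000000 reads mapped to genes, 18144 genes) with 0.0001 added to every value, which was subtracted. No column belonged to a sample outside the labels. Columns of the samples were matched by the identifier in each title. Low CPM values fall on steps of 1 read, with 91.0% to 92.4% of them whole within 0.1 read. The step gave each depth, but the remainder is not whole and no count test was run, although the design allowed for one.

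Ratios of 2 libraries divide CPM, with values under the worth of 3 reads (0.133 to 0.200 CPM) raised to it. Their exact conditional binomial intervals and the Poisson intervals of levels cover counting error only. A gene was counted at 2-fold or more among those of at least 1 CPM on average over the 7 libraries, and all 9 genes passed this filter. Without replicates these ratios have no test. EE-TOPO against CONV-TOPO was tested over days 3 and 7 with limma (version 3.58.1, under R 4.3.3). The values were log2(CPM + 1) after TMM scaling, the model had a term for treatment and one for day, the variance prior followed the mean, 2 residual degrees of freedom remained, and p-values were adjusted by Benjamini-Hochberg. The fit and the scaling were tested on simulated data.

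Gene span and the starts and ends of genes came from the deposited coordinates, transcript length and GC content from GENCODE 44 (a value for 97.1% of genes of at least 1 CPM on average) and promoters from RefSeq on GRCh38.p14. Named were the 9 genes, the 3 genes of each of 5 pathway lists with the largest mean ratio on day 7 among those of at least 5 CPM, and the 5 genes most like AREG and the 5 most like EGFR. EGF, ERBB4, NRG4, HRAS, CBLB, CCND1, EPHA4, PHLDA1, SPRY2 and the neighbours on chromosome 4 were named after their values were seen. Some genes that this rule or the marker lists hold are not reported here. The genes and lists were chosen with earlier results of these data known. Alternatives covered scaling, pseudocount, filter, baseline, trend and libraries of the fit, and a correction for gene span, GC content and transcript length was added after seeing the data. That correction subtracts the fitted trend and adds back the median of all genes. Scripts ran in Python 3.11.15 with scipy 1.17.1, pandas 2.3.3, numpy 2.4.6 and, for the figures, matplotlib 3.10.9.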

Additional observations from a re-analysis of the deposited data

Results flagged for a closer look

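For 3 genes both regimens lay above untreated spheroids on day 3 and below them on day 7, so the 2 days went in opposite directions. The difference between days was not tested, since there was 1 library for each treatment and day. For EGFR the mean log2 ratio of both regimens was 0.51 on day 3 and -1.14 on day 7, a difference of -1.65. For TGFA the means were 0.20 and -0.61, a difference of -0.81. For ERBB3 the means were 0.38 and -0.41, a difference of -0.79. With TMM scaling the signs were the same for all 3, with the smallest values at 0.04 for TGFA (CONV-TOPO, day 3) and -0.06 for ERBB3 (CONV-TOPO, day 7). By library totals EGFR kept both directions against the untreated library of day 0. It was 1.08-fold (CONV-TOPO) and 1.64-fold (EE-TOPO) on day 3 and 0.570-fold and 0.583-fold on day 7. The CONV-TOPO value of day 3, a log2 ratio of 0.11, was no higher than the median of all genes there (0.11). With TMM scaling it turned to -0.02, so EGFR did not keep both directions with that scaling. TGFA and ERBB3 did not keep them by library totals either. With that baseline TGFA was 0.942-fold with CONV-TOPO on day 3, and ERBB3 was 1.05-fold with CONV-TOPO on day 7. After correction of the same-day ratios for gene span, GC content and transcript length, EGFR with CONV-TOPO on day 3 turned to -0.03, so both regimens were no longer above untreated. The difference between days then came to -0.48 for EGFR, -0.33 for TGFA and -0.48 for ERBB3. The corrected ratios keep the median of all genes, which was 0.03 with each regimen on day 3. On day 7 that median was -0.29 with CONV-TOPO and -0.27 with EE-TOPO, so these differences include a shift of all genes.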

How the results depend on the processing

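The count of genes at least 2-fold lower on day 3 changed with the baseline. Against untreated day 0 or the mean of the 3 untreated libraries it went from 3 to 0 with both regimens, and against day 0 EREG (log2 0.55 with CONV-TOPO, 0.065 with EE-TOPO) and EPGN (0.21 with CONV-TOPO) changed sign. After correction for gene span, GC content and transcript length, it went from 3 to 0 with CONV-TOPO, where AREG (-0.87), EREG (-0.94) and EPGN (-0.91) came to lie just inside 2-fold, and all 3 stayed past it with EE-TOPO (-1.18, -1.53 and -1.56). On day 7 the count went to 1 from 3 (CONV-TOPO) and 2 (EE-TOPO) with TMM, median-of-ratios size factors or that correction, and to 1 with EE-TOPO against both other baselines. For EE-TOPO day 7 against its day 3, that correction took the count from 2 to 1. With at least 10 CPM EREG dropped out, which left 1 gene higher in untreated spheroids from day 0 to day 3 and 0 for EE-TOPO against CONV-TOPO on day 7. With a pseudocount of 1 CPM, 1 gene was lower in untreated day 7 against day 3. The other 136 counts kept within 1.5 times. Over all genes, counts at 2-fold ranged from 0.58 to 2.39 times with TMM, 0.25 to 0.84 with the pseudocount, 1.25 to 4.53 without a filter and 0.09 to 0.65 with at least 10 CPM. The test between regimens called 59 genes in place of 0 with 4 libraries, and 0 under 5 other settings, with 91 to 317 genes under an unadjusted p of 0.05. Leaving out day 3 or day 7 gave values with no test, and EREG moved from 0.40 to 1.15 without day 3 and -0.36 without day 7. Depth limits EREG most, at 11 estimated reads in its lowest library. The test between regimens paired them by day through its day term.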
